A study of Arabidopsis thaliana with 30 samples.

Results

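The genes described here are the FLC clade of MADS-box transcription factors, their partner SVP and the floral integrators, 10 genes of the 33602 in each deposited count table. They were chosen by locus identifier: FLC (AT5G10140), FLM (AT1G77080), MAF2 (AT5G65050), MAF3 (AT5G65060), MAF4 (AT5G65070), MAF5 (AT5G65080), SVP (AT2G22540), FT (AT1G65480), TSF (AT4G20370) and SOC1 (AT2G45660). Transcripts were measured by RNA-seq in whole Arabidopsis thaliana Col-0 seedlings, either wild type or bdr1,2,3, a triple mutant with T-DNA insertions in BDR1, BDR2 and BDR3. All seeds were first stratified on MS plates, in darkness at 4 °C, over 4 days. In the photomorphogenesis experiment, seedlings of each genotype grew at 21 °C and had an age of 5 days. The study describes 4 days in the dark, and on day 5 further darkness or white light over the last 2 or 4 h before harvest. For the heat shock experiment, each genotype grew for 12 days at 12 °C in long days (16 h light and 8 h dark) and then stayed at 12 °C (cold) or spent 4 h at 27 °C (heat). Each of the 10 groups held 3 libraries. The labels mention 3 plates per condition and do not say more of how the libraries of a group were separated, so p-values measure only the spread between these samples, which may be technical. The time of day at collection is not given in the sources used here.

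FLC is a repressor of flowering, and the amount of its transcript is a known measure of how strongly flowering is held back. FLM (MADS AFFECTING FLOWERING1) and MAF2 to MAF5 are its closest relatives. SVP, a MADS-box protein of another clade, binds DNA with FLC and with FLM. Together these repressors act on FT and TSF, closely related mobile flowering signals made in the phloem, and on SOC1, a MADS-box activator of flowering at the shoot apex. Prolonged cold silences FLC through Polycomb proteins, the autonomous pathway keeps FLC low, and the FRIGIDA complex, inactive in Col-0 through its FRI allele, raises it.

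The clade members are shown by the stretch of coding sequence that begins their MADS domain, because the values below depend on reads being told apart between such similar genes. Each line holds 60 bases from the start of the coding sequence (for MAF5 from base 21 onward, counted from 0 at its annotated start, where the similarity begins), read from the TAIR10.1 genome. Capitals mark bases that differ from FLC.
FLC: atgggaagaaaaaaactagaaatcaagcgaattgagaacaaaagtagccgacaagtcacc
FLM: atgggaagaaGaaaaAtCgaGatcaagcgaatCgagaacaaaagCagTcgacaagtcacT
MAF2: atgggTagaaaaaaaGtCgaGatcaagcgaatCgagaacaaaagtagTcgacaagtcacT
MAF3: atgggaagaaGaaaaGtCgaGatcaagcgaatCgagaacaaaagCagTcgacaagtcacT
MAF4: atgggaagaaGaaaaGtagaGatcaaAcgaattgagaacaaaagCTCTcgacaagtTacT
MAF5: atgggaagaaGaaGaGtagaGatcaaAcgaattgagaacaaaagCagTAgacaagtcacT

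Over these 60 bases the identity to FLC was 88.3% for MAF2, 86.7% for FLM, 86.7% for MAF3, 85.0% for MAF5 and 83.3% for MAF4. For each relative the annotated isoform with the coding start most like that of FLC was used, a choice that favours high identity. Of all 43-base windows in the annotated exons, 4.21% of those of MAF3 occurred elsewhere in the nuclear genome. The share was 0.607% for MAF2, 0.487% for FLM, 0.107% for MAF5 and 0.074% for MAF4, and 0 for FLC, SVP, FT, TSF and SOC1. Reads in the shared stretches of MAF3 could have been split or dropped, and its values are the least certain of the 10 in this respect. 

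In TAIR10.1, FLC lies on the minus strand at chr5:3173382-3179448, and FLM on the plus strand at chr1:28955483-28960234. MAF2, MAF3, MAF4 and MAF5 form a tandem array on the plus strand of chromosome 5, with MAF2 at chr5:25982254-25986435 and MAF5 at chr5:25997504-26002619. The gaps between them are 873, 780 and 1301 bp. SVP is at chr2:9579647-9583901 (plus), FT at chr1:24331373-24333999 (plus), TSF at chr4:11000771-11003010 (minus) and SOC1 at chr2:18807505-18811125 (minus). FLC is the member that another annotated gene overlaps, the long noncoding RNA AT5G01675 on the opposite strand. The libraries kept strand, but whether counting used it is not given in the sources used here, so reads of that antisense RNA cannot be told apart from those of FLC.

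Photomorphogenesis libraries held 7517174 to 22888978 counts and heat shock libraries 6823975 to 22458726, and replicates of a group differed more than counting error gives (chi-square per degree of freedom 1.97 to 14.7). BDR1 was lower in the mutant in all 5 conditions (log2 fold change -5.27 to -4.53), as was BDR2 (-1.14 to -0.53). BDR3 was lower in 4 conditions and differed by -0.06 in the cold (adjusted p 0.857). Levels below are counts per 1000000 (CPM) after TMM scaling within an experiment. The experiments were scaled separately, so a level set across them is only approximate. A gene was called at an adjusted p under 0.05 from edgeR's quasi-likelihood test over 19521 genes (photomorphogenesis) or 19473 genes (heat shock). Of the 10 members, 8 passed the filter on low counts in each experiment, and FT and TSF did not. In whole seedlings, fewer cells of a type and less RNA per cell cannot be told apart.

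FLC was the member that differed most clearly between the genotypes, and it was higher in the mutant in every condition. In dark-grown seedlings FLC stood at 69.6, 65.2 and 73.7 CPM in the 3 wild-type libraries. The 3 mutant libraries gave 174, 167 and 166 CPM. The mutant values lay far above all wild-type values, a log2 fold change of 1.28 ± 0.06 (SE, edgeR adjusted p 1.39e-13), or 2.43-fold. After 2 h of light, FLC was 60.5, 57.9 and 53.4 CPM in wild type and 129, 124 and 132 CPM in the mutant (1.16 ± 0.06). After 4 h it was 45.1, 46.5 and 44.5 CPM in wild type and 110, 106 and 107 CPM in the mutant (1.25 ± 0.06). The groups did not overlap at any time point, and the genotype difference in log2 units varied little with light.

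The difference was larger in the older, light-grown seedlings of the heat shock experiment. In the cold, FLC was 27.3, 24.3 and 25.4 CPM in wild type. The mutant reached 107, 102 and 102 CPM, 4.02-fold more (log2 fold change 2.01 ± 0.09, edgeR adjusted p 1.56e-11). After 4 h at 27 °C the wild-type libraries held 20.1, 21.8 and 24.8 CPM. The mutant libraries held 116, 120 and 133 CPM, 5.53-fold more (2.47 ± 0.09, adjusted p 2.01e-12). The lowest mutant library in this experiment thus exceeded the highest wild-type library by a wide margin. Seedlings of the experiments differ in age, light and temperature together, so these influences on the size of the difference cannot be told apart.

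SOC1, the activator that FLC represses, was lower in the mutant in all 5 conditions. Its wild-type level in the dark was near the lower end of what these libraries resolve, at 1.58, 0.988 and 1.92 CPM (12, 11 and 23 counts). The mutant gave 0.568, 0.992 and 0.554 CPM (13, 13 and 7 counts). The groups overlapped here, and the log2 fold change of -1.11 ± 0.30 (edgeR adjusted p 0.0114) was not called without wild-type replicate 3 (-0.85, adjusted p 0.136), without mutant replicate 1 (-0.94, 0.0669) or in a fit of the dark libraries alone (-1.09, 0.0649). After 2 h of light, SOC1 was 3.89, 3.41 and 3.54 CPM in wild type and 2.26, 1.99 and 2.18 CPM in the mutant. The groups did not overlap (-0.76 ± 0.23, adjusted p 0.0199), but DESeq2 did not call the difference (-0.74, adjusted p 0.0581), nor did edgeR without wild-type replicate 1 (-0.70, 0.0621) or mutant replicate 2 (-0.70, 0.0861). After 4 h the values were 7.38, 7.42 and 6.41 CPM in wild type and 2.51, 2.24 and 3.66 CPM in the mutant, again without overlap (-1.37 ± 0.21, adjusted p 4.53e-05).

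In the heat shock experiment SOC1 was far more abundant. In the cold it stood at 76.0, 70.1 and 73.1 CPM in wild type and 25.2, 26.8 and 25.0 CPM in the mutant, a log2 fold change of -1.51. At 27 °C it was 29.8, 24.9 and 23.8 CPM in wild type but 2.61, 3.63 and 2.96 CPM in the mutant, 8.61-fold lower (-3.11 ± 0.13, edgeR adjusted p 7.88e-12). No group overlapped another of the same temperature. FLC and SOC1 thus differed in opposite directions in each condition, the repressor higher and the activator lower in the mutant.

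**Figure D1:**
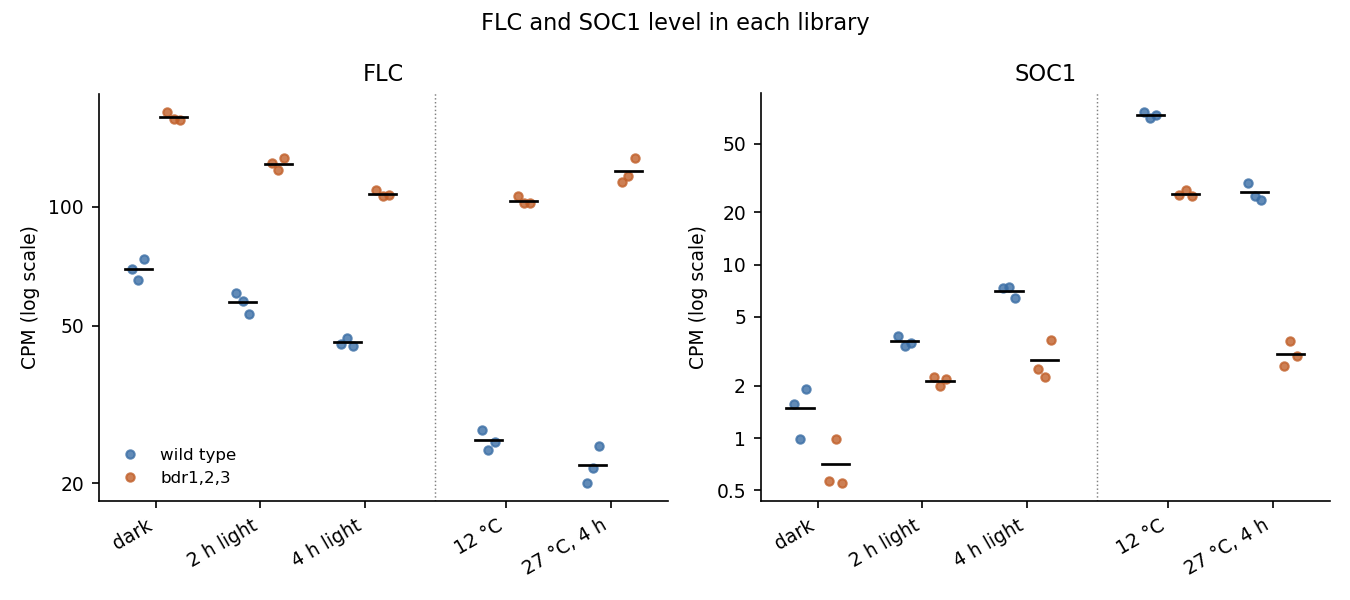
FLC (left) and SOC1 (right) in CPM on a log axis, 1 point per library and a bar at the mean of 3, by condition and genotype; the dotted line separates the experiments, which were scaled separately. Every mutant library lies above the wild-type libraries of its condition for FLC, and below them for SOC1 except in the dark, where 0.992 CPM in the mutant just exceeds 0.988 CPM in wild type.

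SVP, the other repressor that acts on these targets, was lower in the mutant in each condition, the opposite direction from FLC. In the dark it was 13.4, 14.2 and 11.3 CPM in wild type and 10.1, 8.09 and 8.39 CPM in bdr1,2,3 (log2 fold change -0.54 ± 0.14, edgeR adjusted p 0.00822). It was 10.8, 10.5 and 13.5 CPM in wild type after 2 h of light, and 4.76, 5.12 and 6.35 CPM in the mutant (-1.11 ± 0.15). After 4 h the values were 15.7, 16.6 and 15.8 CPM in wild type and 6.51, 9.01 and 9.22 CPM in the mutant (-0.96 ± 0.14). Wild type and mutant did not overlap at any of these times, and the mutant held about 0.464 to 0.689 of the wild-type level.

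In the cold, SVP was 113, 98.9 and 102 CPM in wild type and 72.5, 77.3 and 94.8 CPM in the mutant (-0.37 ± 0.10, edgeR adjusted p 0.0208). At 27 °C it was 126, 133 and 135 CPM in wild type and 99.6, 91.7 and 111 CPM in the mutant (-0.38 ± 0.10, adjusted p 0.00985). The groups again did not overlap, but the difference was smaller than after light. It was not called in the cold without wild-type replicate 1 (-0.30, adjusted p 0.0974) or 3 (-0.39, 0.0512) or without mutant replicate 1 (-0.29, 0.119) or 2 (-0.33, 0.0903). Nor was it called in the heat without mutant replicate 2 (-0.32, 0.0566) or in the dark without wild-type replicate 2 (-0.46, 0.0562).

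The relatives of FLC did not share its pattern. MAF2 was called higher in the mutant in the cold, with 45.1, 45.3 and 48.3 CPM in wild type and 55.9, 55.0 and 56.4 CPM in bdr1,2,3 (log2 fold change 0.27 ± 0.07, edgeR adjusted p 0.0244). It was also higher in the heat, with 51.1, 54.0 and 57.9 CPM in wild type and 64.6, 73.2 and 71.3 CPM in the mutant (0.36 ± 0.07, adjusted p 0.00184). These groups did not overlap, but the rise was at most 1.28-fold. The call in the cold rested on all 6 libraries: leaving out any of them gave an adjusted p between 0.0513 and 0.0855 at log2 fold changes of 0.25 to 0.30. In the photomorphogenesis experiment MAF2 differed by 0.03, 0.15 and 0.12 in the dark and after 2 and 4 h, none of them called.

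FLM, MAF3, MAF4 and MAF5 were not called between the genotypes in any condition. FLM differed by -0.06 to 0.15 in log2 units over the 5 conditions, with SE of 0.08 to 0.09, so changes of the size seen for FLC lay far outside its error. MAF3 differed by -0.18 in the dark, where its groups did not overlap (37.9, 37.2 and 36.5 CPM in wild type, 33.0, 33.1 and 32.2 CPM in the mutant, edgeR adjusted p 0.0663), and by -0.07 to 0.15 elsewhere. MAF4 and MAF5 were scarce in the photomorphogenesis experiment, at 2.22 to 5.00 and 1.77 to 3.88 CPM, and their SE of 0.22 to 0.27 there leave room for moderate changes. 

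Between the genotypes, then, 1 member was called higher (FLC) and 2 lower (SVP and SOC1) of the 8 tested in the dark, after 2 h and after 4 h of light. Among all genes tested, 8.04% were called higher and 11.3% lower in the dark. The shares were 8.67% and 10.6% after 2 h, and 7.86% and 8.67% after 4 h. In the cold and in the heat 2 members were higher (FLC and MAF2) and 2 lower (SVP and SOC1), beside 4.57% and 6.36% of all genes at 12 °C and 8.53% and 10.9% at 27 °C. After 4 h of light the data gave a hint, which the labels do not state, that the replicate numbers pair the libraries. A fit of these 6 libraries with the number as a block called 5473 genes in place of 3227 and changed no call among the members. The median log2 fold change over the 8 members ranged from -0.12 to 0.15, and that over all genes from -0.02 to 0.01.

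**Figure D2:**
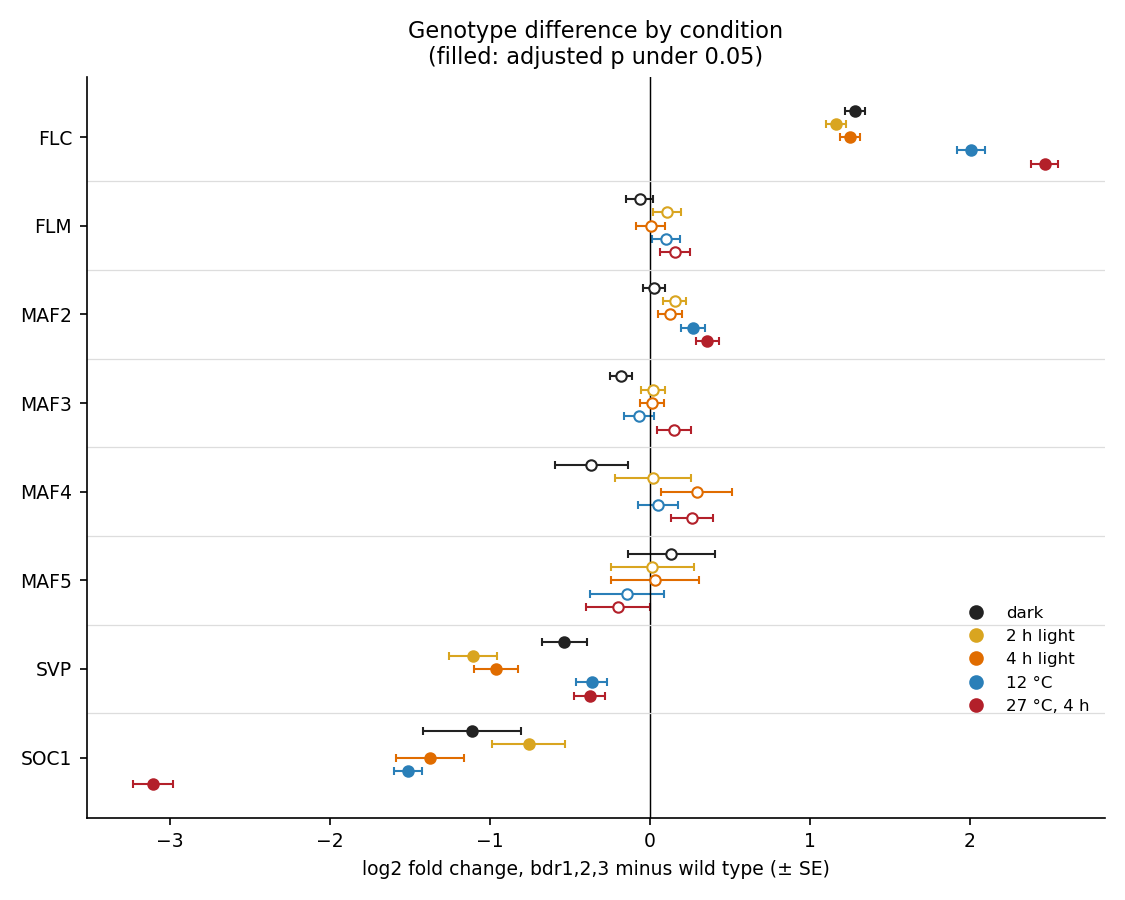
Log2 fold change between bdr1,2,3 and wild type (± SE of the edgeR fit, 3 libraries per group) of the 8 tested members in each condition, filled where the adjusted p was under 0.05. FLC lies between 1.16 and 2.47 in every condition, SVP and SOC1 lie below 0 throughout, and FLM, MAF3, MAF4 and MAF5 have open points only.

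Light lowered FLC, FLM, MAF2 and MAF3 in both genotypes. In wild type, MAF2 went from 98.1, 100 and 87.9 CPM in the dark to 46.0, 45.1 and 47.5 CPM after 2 h (log2 fold change -1.04 ± 0.07, edgeR adjusted p 3.46e-12) and 42.4, 45.7 and 42.6 CPM after 4 h (-1.13 ± 0.07). FLM went from 83.2, 73.4 and 66.8 CPM to 46.5, 39.2 and 42.0 CPM (-0.80 ± 0.09) and 35.1, 39.9 and 33.7 CPM (-1.03 ± 0.09). MAF3 fell by 0.80 and 0.89, and FLC by 0.28 and 0.62. Dark and light libraries of these 4 genes did not overlap at either time. Here and wherever overlap is described, the share of all genes without overlap was not counted. Most of the fall of MAF2 and MAF3 was thus reached by 2 h, while FLC kept falling: between 2 and 4 h FLC changed by -0.34 (adjusted p 0.000164), MAF2 by -0.09 and MAF3 by -0.09.

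The mutant gave the same 4 calls. After 2 h, MAF2 had fallen by 0.92, FLM by 0.63, MAF3 by 0.61 and FLC by 0.40, and after 4 h by 1.03, 0.97, 0.70 and 0.65. FLC in the mutant therefore went from 169 ± 4.22 CPM (SD, n = 3) in the dark to 108 ± 1.99 CPM after 4 h, a level still above the 69.5 ± 4.22 CPM of dark-grown wild type. FLM also fell between 2 and 4 h in the mutant (-0.33, edgeR adjusted p 0.00393). In wild type that change (-0.23, adjusted p 0.0369) was not called by DESeq2 (-0.22, 0.0797), without the low-count filter (-0.22, 0.0502), with RLE size factors (-0.22, 0.0533), or without 2 h replicate 1 (-0.15, 0.227) or 3 (-0.23, 0.0756) or 4 h replicate 1 (-0.21, 0.103) or 3 (-0.19, 0.15).

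SOC1 rose with light, from the lowest level of any tested member. In wild type its log2 fold change was 1.27 ± 0.25 after 2 h (edgeR adjusted p 9.27e-05) and 2.23 ± 0.24 after 4 h (adjusted p 8.29e-09), a 4.70-fold rise. In the mutant it was 1.62 ± 0.28 and 1.97 ± 0.27. The light libraries lay above all dark libraries in each genotype. Between 2 and 4 h SOC1 rose by 0.97 in wild type (adjusted p 0.000419), and the 0.35 in the mutant was not called (adjusted p 0.245). Their difference at 4 h relative to 2 h was not tested.

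SVP did not keep 1 direction over the light period. In wild type it differed by -0.16 ± 0.14 at 2 h, which was not called, and it was higher at 4 h than at 2 h (0.47, edgeR adjusted p 0.00646). The rise over the dark at 4 h (0.31 ± 0.14, adjusted p 0.0486) was marginal. It was not called by DESeq2 (0.31, 0.0941), with the replicate block (0.31, 0.056), or without wild-type dark replicate 1 (0.33, 0.0672) or 3 (0.21, 0.228) or light replicate 1 (0.32, 0.0652), 2 (0.28, 0.119) or 3 (0.32, 0.0761). In the mutant SVP fell by 0.73 at 2 h (adjusted p 0.000141) and rose by 0.61 between 2 and 4 h (adjusted p 0.00261), which left it at -0.12 ± 0.14 relative to the dark. MAF5 was not called in any light comparison. Without wild-type 4 h replicate 1, at 3.88 CPM beside 1.88 and 1.77 CPM, MAF5 was called lower at 4 h than at 2 h (-0.73, adjusted p 0.0323).

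MAF4 was not called against the dark, at -0.53 after 2 h in wild type (edgeR adjusted p 0.0524) and -0.14 in the mutant. The former was called without wild-type dark replicate 2 (-0.74, 0.0105), with RLE size factors (-0.54, 0.0487) and with the replicate block (-0.53, 0.0478). In the mutant MAF4 rose by 0.59 between 2 and 4 h (adjusted p 0.0388). DESeq2 did not call that rise (0.57, 0.101), nor did edgeR without mutant 2 h replicate 2 (0.47, 0.167) or 3 (0.56, 0.0986) or 4 h replicate 2 (0.51, 0.141) or 3 (0.60, 0.0678). Its difference between 4 h and dark in the mutant (0.45, adjusted p 0.0724) was called without mutant dark replicate 1 (0.60, 0.0403).

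Light moved a large share of all genes, and the counts for the members are read against it. In wild type, 1 member was called higher and 4 lower after 2 h, where 33.9% of all genes were higher and 32.9% lower. After 4 h the counts were 2 and 4, beside 35.2% and 34.9%. Between 2 and 4 h they were 2 and 2, beside 23.4% and 22.6%. In the mutant, 1 member was higher and 5 lower after 2 h (33.9% and 33.8% of all genes), 1 and 4 after 4 h (35.9% and 34.1%), and 2 and 2 between 2 and 4 h (22.5% and 19.3%). The median over the 8 members was -0.40 and -0.41 in wild type and -0.50 and -0.39 in the mutant at 2 and 4 h, compared with -0.01 to 0.01 over all genes.

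The genotypes were not shown to differ in how these genes responded to light. With edgeR, 0 of the 8 members had a called interaction, the genotype difference in light minus that in the dark, at 2 h or at 4 h, where 1.84% and 2.07% of all genes did. DESeq2 also called 0 at each time. At an unadjusted p under 0.05 there was 1 member at 2 h, SVP (-0.57 ± 0.21, adjusted p 0.179). There were 2 at 4 h, SVP (-0.43 ± 0.20, adjusted p 0.338) and MAF4 (0.66 ± 0.32, adjusted p 0.363). Both interactions use the same dark libraries. For FLC the interaction was -0.12 ± 0.09 and -0.03 ± 0.09, so that light lowered it in about the same proportion from the higher mutant level. For SOC1 it was 0.36 ± 0.37 and -0.26 ± 0.39, errors wide enough to hold a sizeable difference in either direction.

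The shift to 27 °C separated the clade members. In wild type, FLM went from 75.9, 59.4 and 66.6 CPM in the cold to 30.9, 32.9 and 30.4 CPM in the heat (log2 fold change -1.11 ± 0.09, edgeR adjusted p 2.16e-08). MAF3 went from 38.0, 28.1 and 32.4 CPM to 13.7, 14.0 and 14.1 CPM (-1.25 ± 0.10). MAF4 fell by 0.55, from 12.6, 9.36 and 12.9 CPM to 7.68, 8.49 and 8.10 CPM. In contrast, MAF5 rose from 2.45, 3.91 and 4.22 CPM to 7.13, 5.96 and 5.38 CPM (0.80 ± 0.22, adjusted p 0.00407). Neighbouring genes of the tandem array on chromosome 5 therefore moved in opposite directions, MAF3 and MAF4 downward and MAF2 and MAF5 upward, and the cold and heat libraries of each did not overlap. MAF2 rose by 0.23 (adjusted p 0.0128), and was not called without wild-type heat replicate 3 (0.18, 0.077).

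In the mutant the same genes moved the same way, FLM by -1.05, MAF3 by -1.03, MAF4 by -0.34, MAF2 by 0.32 and MAF5 by 0.75, all called. SVP rose in both, by 0.32 (wild type) and 0.31 (mutant). The mutant call for MAF4 (edgeR adjusted p 0.0275) was lost with DESeq2 (-0.32, 0.0718) and without cold replicate 1 (-0.29, 0.0982) or heat replicate 1 (-0.29, 0.0988) or 3 (-0.28, 0.105). That for SVP (0.31, adjusted p 0.0114) was lost without cold replicate 1 (0.23, 0.0744) or heat replicate 3 (0.23, 0.0696).

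SOC1 fell in the heat in both genotypes, and it fell further in the mutant. In wild type it dropped 2.80-fold (log2 fold change -1.49 ± 0.09, edgeR adjusted p 5.32e-10). In the mutant it dropped 8.44-fold (-3.08 ± 0.13, adjusted p 8.26e-12), from 25.7 ± 1.00 CPM to 3.07 ± 0.52 CPM (SD, n = 3). The difference between these responses, tested as the interaction, was -1.59 ± 0.16 (adjusted p 0.000225). Across the alternatives that leave out a library it lay between -1.72 and -1.48, with adjusted p from 6.9e-05 to 0.00248. SOC1 was the member with a called interaction, 1 of 8, beside 1.02% of all genes.

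FLC changed little in the heat. In wild type it differed by -0.21 ± 0.09 in log2 units (edgeR adjusted p 0.0543), and it was called lower without cold replicate 2 (-0.25, 0.0464) or heat replicate 3 (-0.30, 0.0139). In the mutant it rose by 0.25 ± 0.08 (adjusted p 0.0114), which was not called without heat replicate 3 (0.19, 0.0698). The interaction of 0.46 ± 0.12 was not called (adjusted p 0.0831). DESeq2 called it (0.48, adjusted p 0.0342), as did edgeR without wild-type heat replicate 3 (0.57, 0.0372). Without mutant heat replicate 3, 5 in place of 8 members were called in the mutant. In wild type 3 members were called higher and 4 lower in the heat, beside 29.3% and 28.5% of all genes, and in the mutant 4 and 4, beside 29.4% and 31.2%.

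**Figure D3:**
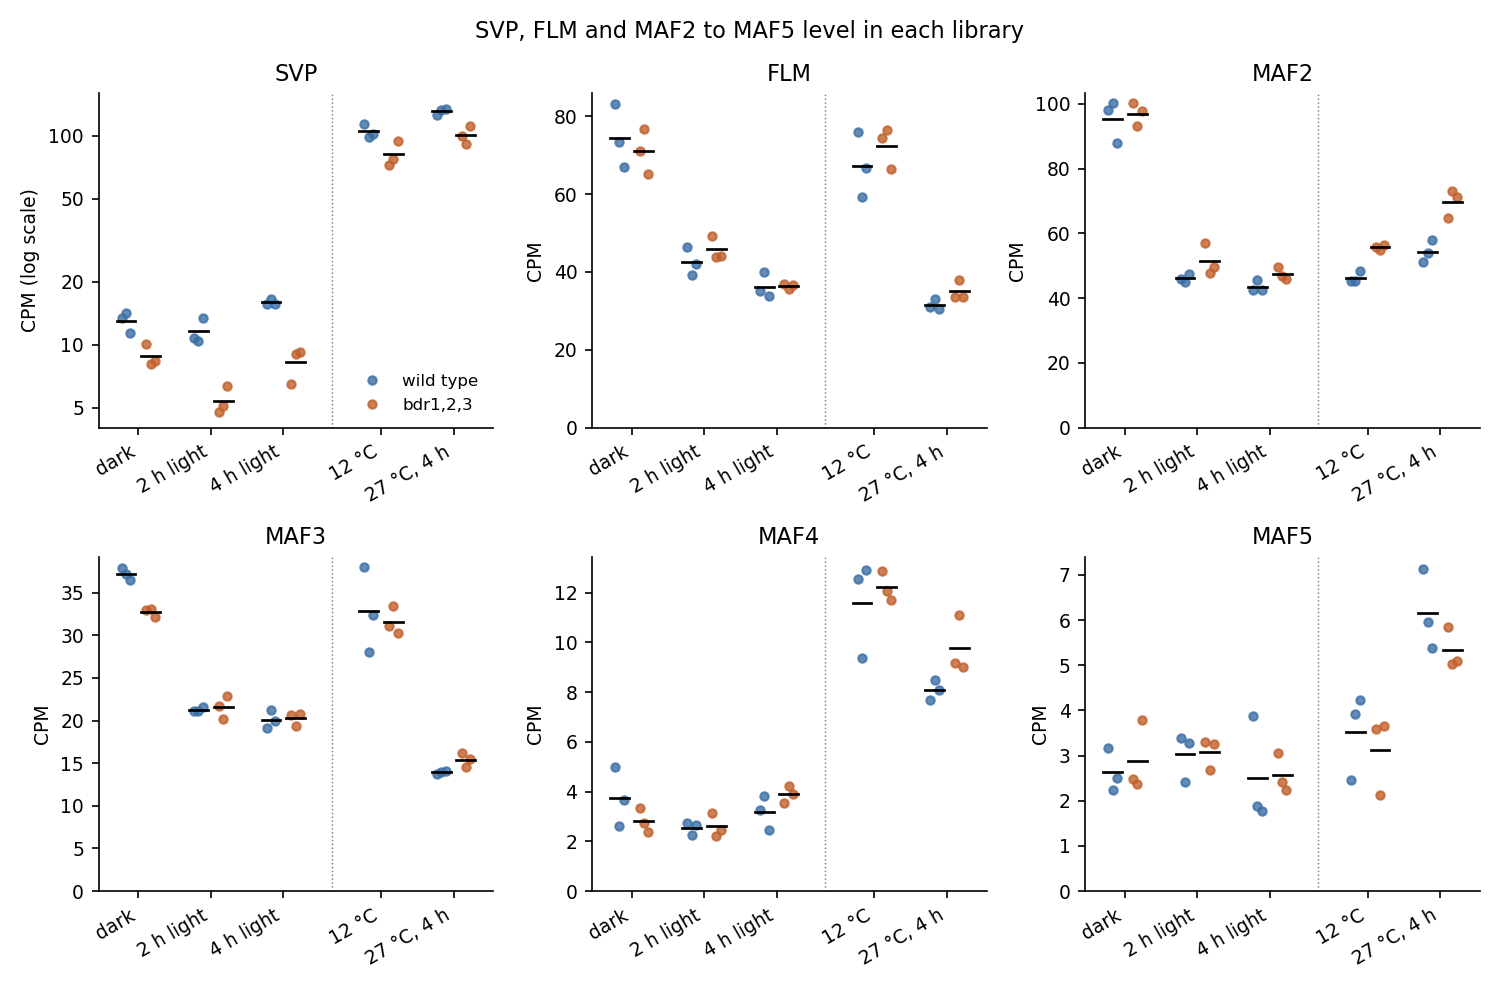
SVP (log axis) and FLM, MAF2, MAF3, MAF4 and MAF5 (linear axes from 0) in CPM, 1 point per library and a bar at the mean of 3, by condition and genotype; the dotted line separates the experiments, which were scaled separately. FLM, MAF2 and MAF3 are higher in the dark than in light in each genotype, while in the heat FLM, MAF3 and MAF4 fall and MAF2 and MAF5 rise.

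**Figure D4:**
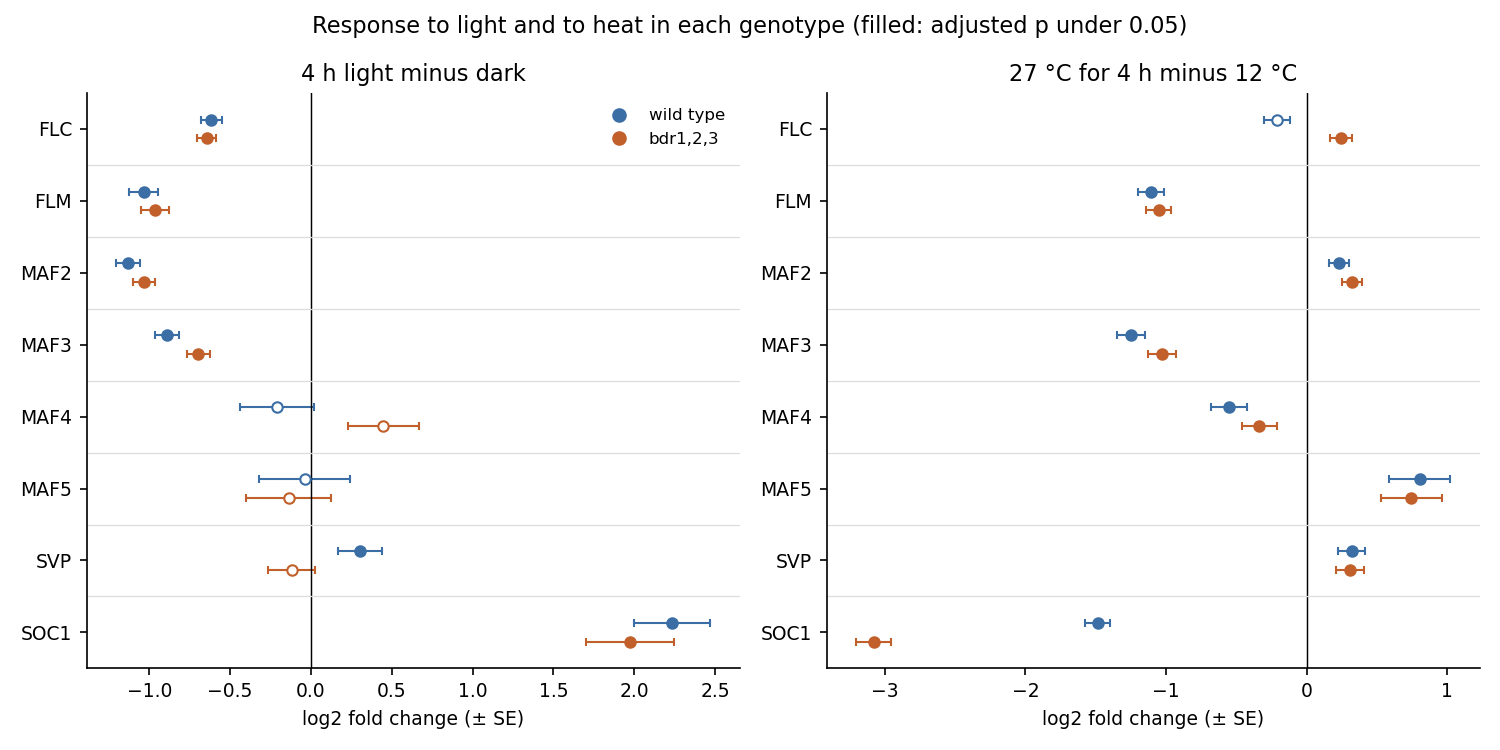
Log2 fold change (± SE of the edgeR fit, 3 libraries per group) of the 8 tested members with 4 h of light (left) and with 4 h at 27 °C (right) in wild type and bdr1,2,3, filled where the adjusted p was under 0.05. The genotypes lie close together for FLM and MAF2 in each panel, and SOC1 in the heat is at -1.49 in wild type and -3.08 in the mutant.

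Transcripts of FT and TSF were at or near the detection limit. FT had at most 2 counts in any library of the photomorphogenesis experiment and 0 in 13 of the 18. In the heat shock experiment it had 10, 4 and 2 counts in wild-type cold libraries, 1, 3 and 3 in wild-type heat, 5, 1 and 2 in mutant cold and 2, 1 and 0 in mutant heat. The highest level, 0.743 CPM, was thus in a cold-grown wild-type library. TSF had 0 to 7 counts in a photomorphogenesis library and 0 to 6 in a heat shock library. A count of 3, the limit that a count of 0 allows, corresponds to 0.131 to 0.395 CPM in the former and 0.133 to 0.419 CPM in the latter, for counting error only. Without the filter on low counts, no comparison of FT or TSF was called by edgeR. The smallest adjusted p was 0.122, for TSF in the wild-type heat response. Differences in these genes were therefore not detectable at this depth.

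The members differ widely in level, which is compared between genes as CPM per kilobase of annotated exon. In dark-grown wild type FLC had the highest value on this scale, at 58.9 ± 3.58 CPM per kb (SD, n = 3). MAF2 followed at 28.2 ± 1.94, MAF3 at 25.4 ± 0.468, FLM at 16.6 ± 1.84, SVP at 7.25 ± 0.823, MAF4 at 2.28 ± 0.73, MAF5 at 2.15 ± 0.384 and SOC1 at 0.963 ± 0.303 CPM per kb. MAF4 and MAF5 did not differ beyond their spread. In cold-grown wild type the order was another: SVP stood at 58.5 ± 4.29 and SOC1 at 47.1 ± 1.88 CPM per kb, above MAF3 at 22.4 ± 3.39, FLC at 21.7 ± 1.27, FLM at 15.0 ± 1.85, MAF2 at 13.7 ± 0.537, MAF4 at 7.05 ± 1.19 and MAF5 at 2.88 ± 0.77. Here MAF3 and FLC, and FLM and MAF2, did not differ beyond their spread. In the cold-grown mutant FLC again led, at 87.7 ± 2.24 CPM per kb, ahead of SVP at 45.5 ± 6.56. The order rests on the length used. The annotated exons of FLM cover 4480 of its 4752 bases and those of MAF2 3384 of 4182, compared with 1464 of 4104 for MAF3 and 1180 of 6067 for FLC, which lowers FLM and MAF2 on this scale. Before division by length, MAF2 at 95.4 CPM and FLM at 74.5 CPM lay above FLC at 69.5 CPM in dark-grown wild type.

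Across the 18 and the 12 libraries, FLM and MAF3 were the members most alike by the smaller r of the experiments (Pearson r 0.959 and 0.984 on log2 CPM). MAF2 followed MAF3 in the photomorphogenesis experiment (r = 0.972) but not in the heat shock experiment (r = -0.59). FLC and SOC1 had r of -0.764 and -0.714. These values describe the pattern over the study's groups, whose libraries share conditions, and are not tests. Of the 18636 genes tested in both experiments, with the members set aside, AT1G05894 was most like FLC (the smaller r of the experiments was 0.935). AT1G72840 followed (0.922). For SOC1 they were AT1G73650 (0.941) and RAD52-2 (0.931), for SVP HS1 (0.902) and TAFII59 (0.872), for FLM MC4 (0.971) and AT5G62900 (0.964), for MAF2 PKP-BETA1 (0.972) and PHYA (0.967), and for MAF3 BBX21 (0.979) and OTS2 (0.974). MAF4 and MAF5 had no gene above 0.773 and 0.741.

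Some known regulators of FLC also differed between the genotypes. Of 12 genes for FLC chromatin activators (the PAF1 complex, the SWR1 complex and histone methyltransferases), 3 were called lower in the dark, 1 after 2 h, 1 after 4 h and 1 in the cold. DESeq2 called 1 of them in place of 3 in the dark. In the heat 1 was lower and 1 higher (ATXR7, a histone methyltransferase, 0.43). Among all genes, 11.3% were called lower in the dark, 10.6% after 2 h, 8.67% after 4 h and 6.36% in the cold. In the heat 10.9% were lower and 8.53% higher, and 1 gene of 12 is near these shares. ELF7, the PAF1 subunit required for high FLC expression, was lower in the mutant in all 5 conditions. It went from 55.8, 50.7 and 60.1 CPM in dark-grown wild type to 31.7, 30.1 and 31.7 CPM in the mutant (-0.83 ± 0.07, edgeR adjusted p 1.36e-08), and differed by -0.48, -0.40, -0.30 and -0.46 after 2 h, after 4 h, in the cold and in the heat. Its direction was thus opposite to that of FLC. The call in the cold was lost without wild-type replicate 3 (-0.22, adjusted p 0.184) and without mutant replicate 1 (-0.29, 0.0963) or 2 (-0.26, 0.115).

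Of the 8 autonomous pathway genes, whose products lower FLC, 2 were lower in dark-grown bdr1,2,3 (FPA, -0.49, and FCA, -0.32, both RNA-binding proteins). After 2 h edgeR called 0, with 1 at an unadjusted p under 0.05 and 1 called by DESeq2, and after 4 h it called 1. LD, a homeodomain protein, was higher in the cold (0.44, edgeR adjusted p 0.000794). In the heat 2 were higher (1 by DESeq2), the larger difference being that of FCA (0.76 ± 0.09, adjusted p 7.56e-06). FCA stood at 52.0, 52.4 and 51.9 CPM in heated wild type and 99.7, 80.8 and 84.1 CPM in the heated mutant, and its response to heat differed between the genotypes (interaction 0.84, adjusted p 0.00504). Of the 5 FRIGIDA complex genes, 1 was called between the genotypes, SUF4, a zinc finger protein that was higher in the heat (0.48). Of the 11 Polycomb and vernalization genes, 1 was higher in the dark (CLF, a histone methyltransferase of the Polycomb complex, 0.35) and 2 were lower (LHP1, -0.31, and VEL1, -0.31). After 2 h 1 was lower, and after 4 h 2 were lower (1 by DESeq2), among them VEL1 (-0.25). In the cold and in the heat edgeR and DESeq2 called 0 of them, with 4 at an unadjusted p under 0.05 in the cold and 0 at 27 °C. The median log2 fold change between the genotypes stayed within -0.11 to 0.09 for each of these 4 lists in every condition, beside -0.02 to 0.01 over all genes.

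Genes that act on or beside FT are given for comparison, with their genotype counts read against the shares of all genes given above. Of 13 repressors and activators of FT, 4 were called in the mutant in the dark, all lower (2 by DESeq2), where the bHLH factor PIF4 differed by -0.58. After 2 h 2 were higher, among them the AP2-type repressor TOE2 (0.29), after 4 h 2 were higher and 2 lower, and in the cold 1 was lower. In the heat 2 were higher, among them the repressor TEM1 (0.33), and 1 lower, the AP2-type repressor SNZ (-0.78). At 27 °C 9 of these 13 were called lower and 2 higher in each genotype, beside 28.5% and 29.3% of all genes in wild type and 31.2% and 29.4% in the mutant. After 2 h of light 9 of the 12 tested were higher and 2 lower in wild type, and 8 and 2 in the mutant, beside 33.9% and 32.9% of all genes in wild type and 33.9% and 33.8% in the mutant. CO, the photoperiod activator of FT, had 34, 15 and 49 counts in the cold-grown wild type and 0, 3 and 0 in the heat, and 94, 59 and 62 compared with 2, 6 and 4 in the mutant. CO was thus detected mainly in the cold groups. FD, the bZIP partner of FT, fell in the heat, by 1.93 (wild type) and 1.61 (mutant).

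VIN3, the cold-induced vernalization gene, had 55, 19 and 45 counts in wild type and 50, 60 and 31 in the mutant at 12 °C. At 27 °C it had 6, 7 and 7 counts in wild type and 4, 2 and 1 in the mutant. Both genotypes thus showed the transcript in the cold, and it was not called between them (log2 fold change -0.10 ± 0.29, edgeR adjusted p 0.883). That error leaves room for a moderate difference. Any relation of VIN3 to the FLC difference was not tested. Of the 15 downstream MADS-box, LFY and SPL genes, 3 passed the filter in the photomorphogenesis libraries and 8 in those of the heat shock experiment. Between the genotypes 1 was called lower in the cold, beside 6.36% of all genes, and 3 in the heat (2 by DESeq2), beside 10.9%. The former was SPL4 (-0.60), not called without wild-type replicate 3 (-0.53, edgeR adjusted p 0.0933). Those in the heat included SPL15 (-1.96 ± 0.46, adjusted p 0.0054) and SPL5 (-1.67 ± 0.33, adjusted p 0.00151), factors that promote the floral transition. 

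Markers of tissues that a seedling contains moved with genotype in some groups. The summed level of 9 root markers in the dark was 2572 to 3129 CPM in wild type and 3314 to 3463 CPM in the mutant, with PLT1 and PLT2 at or under 3 counts in each. After 2 h of light the root sum was 3866 to 4380 CPM in wild type and 4924 to 5349 CPM in the mutant. After 4 h it was 6028 to 6654 and 7506 to 7908 CPM. In the cold it was 1062 to 1233 and 1073 to 1304 CPM, and in the heat 851 to 1141 and 748 to 1034 CPM. The sum of 4 phloem markers was 247 to 266 CPM in dark-grown wild type and 169 to 220 CPM in the mutant, and 304 to 362 and 339 to 388 CPM in the cold. In the dark and in the cold alike, 1 phloem marker was called higher in the mutant and 1 lower. DESeq2 called 1 phloem marker in each. Of all genes 8.04% were higher and 11.3% lower in the dark, and 4.57% and 6.36% in the cold. The sum of 4 shoot meristem markers, the tissue where SOC1 acts, was 111 to 117 CPM in dark-grown wild type and 98.7 to 109 CPM in the mutant, where KNAT1 was called lower (-0.20, edgeR adjusted p 0.0291). After 2 h of light it was 131 to 135 and 147 to 166 CPM, and after 4 h 92.2 to 97.2 and 99.9 to 108 CPM. It was 17.2 to 21.9 CPM in cold wild type and 20.9 to 24.8 CPM in the cold mutant, and 13.4 to 15.7 and 16.7 to 19.7 CPM in the heat. Of the 2 meristem markers tested, 1 was called higher in the mutant after 2 h and 1 in the cold. All genes called higher made up 8.67% and 4.57% there. After 4 h and in the heat 0 of these markers were called. WUS was at or under 3 counts in 7 of the 10 groups. The part of these tissues in the results was not tested.

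The study places BDR proteins at gene borders, so the nearest protein-coding gene on the 5′ side of each member was examined. The paper describes BDR-protected genes as mostly lying close behind a strongly expressed neighbour of the same strand. Among the members the shortest such distance was 780 bp, for MAF4, and an effect of these neighbours on the members was not tested. For FLC it was AT5G10150, on the same strand 2489 bp away, which differed by -0.43 after 4 h of light (edgeR adjusted p 0.00268), was not called in the other 4 conditions, and differed by 0.00 in the cold. For SOC1 it was AT2G45670, on the same strand 3534 bp away, lower in bdr1,2,3 in the dark (-0.23) and after 4 h (-0.22) and not called otherwise. For SVP it was AT2G22530, on the opposite strand 2030 bp away, at -0.11 to 0.05 and never called. For TSF it was LSD1, on the opposite strand 1492 bp away, lower in the mutant after 4 h (-0.42, edgeR adjusted p 0.000247) and not called otherwise. For FLM (AT1G77060), MAF2 (AT5G65040) and FT (FAS1) it was on the opposite strand and not called in any condition. MAF3, MAF4 and MAF5 have the preceding gene of the array as neighbour. The distances hold for TAIR10.1 gene borders.

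The CArG box, the motif that MADS-domain proteins bind, was searched by its consensus in the 1000 bases before each annotated start in TAIR10.1. Because its consensus reads the same on either strand, each match was counted once for both strands, and no other motif was searched. FLM and SOC1 held 1 match each and the other 8 members 0, compared with 7.21% of 27443 protein-coding promoters with at least 1. The matches are shown for both members that hold one, with 40 bases on either side and the box in capitals, as read on the strand of the gene. They lie 711 and 874 bases before the start, at chr2:18811787-18811876 (minus strand) and chr1:28954569-28954658 (plus strand). A match is only a match of letters, and sites within introns or closer variants of the motif were not searched.
SOC1: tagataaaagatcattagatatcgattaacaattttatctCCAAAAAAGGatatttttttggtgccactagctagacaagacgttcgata
FLM: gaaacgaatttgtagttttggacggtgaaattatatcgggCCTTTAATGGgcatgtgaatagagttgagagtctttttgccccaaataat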

How the data were processed

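RNA-seq libraries came from 30 samples in 10 groups of 3, made with a strand-keeping kit. The authors deposited raw counts per gene, which entered all tests, and a signal table of the same counts divided by 1 size factor per library, which was used only to check the counts. The submitters' processing notes name STAR 2.5.2b, SAMtools 1.3.1, featureCounts, R 3.3.2, DESeq2 1.14.1 and the TAIR10 genome, without role or order. Positions, names and sequences were taken from RefSeq's TAIR10.1. Total counts per library were 6823975 to 22888978. Intervals and floors cover counting error only, and a group was at the floor at 3 counts or fewer per library.

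Each experiment was fitted separately with edgeR 4.0.16 in R 4.3.3: filterByExpr, TMM scaling, 1 coefficient per group over all libraries of the experiment, robust quasi-likelihood tests (two-sided) and Benjamini-Hochberg adjustment over all genes tested, with a threshold of 0.05. A prior count of 2 was used for log2 CPM. In the 16 comparisons, heat was set against cold and light against dark within a genotype, the mutant against the wild type within a condition, and the responses against each other as interactions. The fits were tested on simulated data. Alternatives were DESeq2 1.42.0, RLE size factors, no filter, the replicate number as a block, only the libraries of the contrast, and leaving out each replicate. The labels number the replicates alike in each group but do not say what a number marks. The deviations of same-numbered libraries from their group means correlated at 0.187 to 0.63 in the comparison of genotypes after 4 h of light, a hint from the data that the numbers pair the samples there, and fell to or below 0.1 for at least 1 pair in each other comparison. All 3 mutant libraries there correlated best with the wild-type library of their own number. The same held for the genotypes in the dark (0.0316 to 0.284) and for heat against cold in the mutant (0.0904 to 0.176), a weaker hint.

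The members and gene lists were chosen with earlier results of these data known. All 10 members are described. From each list at most 2 genes per direction are named, those with the largest fold change among the called. For likeness, the 2 genes closest to each member are named, by the smaller of the Pearson correlations over the libraries of the 2 experiments. The nearest protein-coding gene on the 5′ side of each member and the BDR genes are also given.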

Additional observations from a re-analysis of the deposited data

Results flagged for a closer look

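The response of SOC1 to heat differed between the genotypes by the test of the interaction itself. SOC1 went from 73.1 ± 2.91 CPM in the cold to 26.2 ± 3.18 CPM in the heat in wild type (SD, n = 3), and from 25.7 ± 1.00 CPM to 3.07 ± 0.521 CPM in the mutant (SD, n = 3). The interaction was -1.59 on the log2 scale (edgeR adjusted p 0.000225). All 3 heated libraries of each genotype lay below all of its cold libraries.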

How the results depend on the processing

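Of the 128 member values, 119 kept their direction and their side of the threshold under DESeq2, 123 under RLE size factors, 126 without the filter, 127 with only the libraries of the contrast, 126 with the replicate block, and 124 with the block in a fit of only the libraries of the contrast, an alternative chosen after seeing the data. Every reversal was of a value that had not been called. The genotype difference of FLM after 4 h turned to -0.010 (DESeq2), -0.0099 (RLE), -0.00053 (no filter) and -0.0037 (block, libraries of the contrast), and that of MAF3 to -0.0034 (DESeq2) and -0.0018 (RLE). The heat interaction of SVP became 0.0092 (DESeq2) and 0.0082 (RLE). DESeq2 called 2 members in the heat interaction, where edgeR called 1. The cause was not tested.

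Leaving out each replicate in turn gave 2 to 3 members called between the genotypes in the cold (4 with all libraries), 5 to 8 in the heat response of the mutant (8) and 1 to 2 in the heat interaction (1). Member values that changed sign ranged as follows. Between the genotypes they were FLM (-0.14 to 0.017), MAF2 (-0.032 to 0.064) and MAF5 (-0.090 to 0.26) in the dark, MAF3 (-0.025 to 0.064), MAF4 (-0.14 to 0.14) and MAF5 (-0.12 to 0.12) after 2 h, FLM (-0.045 to 0.077), MAF3 (-0.026 to 0.053) and MAF5 (-0.16 to 0.50) after 4 h, and MAF3 (-0.16 to 0.050), MAF4 (-0.059 to 0.13) and MAF5 (-0.37 to 0.067) in the cold. Between light and dark they were MAF4 (-0.42 to 0.015) and MAF5 (-0.51 to 0.16) in wild type after 4 h, and in the mutant MAF4 (-0.30 to 0.012) and MAF5 (-0.0089 to 0.32) after 2 h and MAF5 (-0.29 to 0.085) and SVP (-0.21 to 0.017) after 4 h. Among interactions they were MAF5 at 2 h (-0.26 to 0.10), FLC (-0.076 to 0.016), FLM (-0.014 to 0.14), MAF5 (-0.30 to 0.37) and SOC1 (-0.53 to 0.022) at 4 h, and FLM (-0.042 to 0.15), MAF5 (-0.25 to 0.16) and SVP (-0.093 to 0.11) in the heat.

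With the replicate block, 6 members were called in wild type after 2 h (5 without) and 5 after 4 h (6 without). MAF4 after 2 h was then called (-0.53, adjusted p 0.0478) and SVP after 4 h was not (0.31, adjusted p 0.056), and the block changed no other member call. Over all genes, the block with only the libraries of the contrast called 5473 genes between the genotypes after 4 h (3227 without) and 249 in the 4 h interaction (404). Leaving out a replicate gave 205 to 497 in that interaction, 218 to 380 in the 2 h interaction (360 with all libraries), 42 to 354 in the heat interaction (198) and 1293 to 2091 between the genotypes in the cold (2129). FT and TSF were limited by depth, and without the filter their smallest adjusted p was 0.122 in edgeR and 0.157 in DESeq2. Of 206 called values of list genes, 154 were called in every setting.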
